A study of Mus musculus with 12 samples.

Results

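The 35 genes described here encode the enzymes of the tricarboxylic acid (TCA) cycle, the pyruvate dehydrogenase (PDH) complex with its kinases and phosphatases, the mitochondrial pyruvate carrier and the reactions that fill or drain the cycle. They were taken from a list of gene names that leaves out the subunits of succinate dehydrogenase, and all 35 were found among the 55401 gene IDs of the count files. Levels were measured by RNA-seq in subcutaneous white adipose tissue (scWAT), the fat depot below the skin, from 12 female mice on a C57BL/6J background. The mice were 16 weeks old when treatment began, were caged one by one and spent 1 week at 30°C. They were then kept for 1 further week either at 30°C, which is thermoneutral for a mouse, or at 8°C, which sets off heat production. Both temperatures held 3 wild-type (Jmjd1a +/+) and 3 Jmjd1a HY/HY mice, so that there were 4 groups of 3 libraries. HY is a knock-in allele that replaces a histidine of the catalytic domain of JMJD1A, a histone demethylase, by tyrosine and removes its activity. The allele is present in every cell of the body and the female mice came from 1 knock-in line, so that an effect in adipocytes cannot be told apart from one in other cells or tissues.

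The TCA cycle oxidises acetyl-CoA in the mitochondrial matrix and passes its electrons to the respiratory chain. Pyruvate enters the matrix through the carrier made of MPC1 and MPC2 and is either oxidised to acetyl-CoA by the PDH complex or carboxylated to oxaloacetate by pyruvate carboxylase. The PDH kinases switch the complex off by phosphorylation and the phosphatases switch it on again. In beige and brown adipocytes, which form or become active in the cold, the cycle feeds the respiration that uncoupling protein turns into heat. In white adipocytes pyruvate carboxylase and citrate also serve fatty acid synthesis.

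The libraries held from 13592629 to 26352081 read pairs on the sense strand of genes, and all 6 libraries at 8°C held fewer than the 6 at 30°C. Levels are given in CPM, the counts of a gene relative to the total of its library after TMM scaling, which sets libraries to a common typical gene, and the log2 fold changes, standard errors (SE) and adjusted p-values are from edgeR's quasi-likelihood test over 16540 genes. A fold change is written with its SE after ±, and where levels of both temperatures follow each other, 30°C comes first. To be called higher or lower a gene needed an adjusted p under 0.05 together with a fold over 1.5 or under 0.67. The interaction subtracts the cold response of the wild type from that of HY/HY mice, and for it the limit on p was used alone. Kdm3a, the gene of JMJD1A, differed between genotypes by 0.17 at 8°C and -0.12 at 30°C on the log2 scale and was called in neither comparison, and since the allele changes a codon the count does not check the genotype. The summed markers of beige adipocytes were 8757 to 9887 CPM in wild-type mice at 8°C, 514 to 1741 CPM in HY/HY mice at 8°C and 56.0 to 210.2 CPM at 30°C. The white adipocyte markers were found in every library, with sums between 21817 and 48075 CPM, and within each 30°C group they were highest in replicate 3. Skeletal muscle markers reached a sum of 1590 CPM in 1 library, wild-type replicate 2 at 30°C, and at most 24.8 CPM elsewhere.

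Promoter sequences are shown for the 3 subunits of succinyl-CoA ligase, a single enzyme whose subunits differed in their response, for Mdh2, which carries a match to the CREB motif, and for Pdk4, which had the largest cold response of the 35 genes. Each is the 150 bases before the transcription start in RefSeq, GRCm38.p6 (the mm10 build of the files), 5′ to 3′ on the strand of the gene, in lower case with motif matches in capitals. The Suclg1 promoter is at chr6:73248355-73248504 (plus strand), Sucla2 at chr14:73552636-73552785 (plus), Suclg2 at chr6:95718847-95718996 (minus), Mdh2 at chr5:135778499-135778648 (plus) and Pdk4 at chr6:5496279-5496428 (minus). The listed span of the gene Suclg2 ends at 95718858, so that its window reaches into that span.
Suclg1: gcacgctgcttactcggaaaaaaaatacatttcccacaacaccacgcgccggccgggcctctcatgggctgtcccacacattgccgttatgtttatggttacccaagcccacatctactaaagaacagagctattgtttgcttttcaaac
Sucla2: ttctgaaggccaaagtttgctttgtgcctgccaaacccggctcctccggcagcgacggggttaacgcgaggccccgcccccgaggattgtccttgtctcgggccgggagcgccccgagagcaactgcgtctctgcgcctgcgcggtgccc
Suclg2: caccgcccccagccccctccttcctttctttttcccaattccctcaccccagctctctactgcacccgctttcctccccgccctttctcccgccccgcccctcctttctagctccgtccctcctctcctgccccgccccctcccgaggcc
Mdh2: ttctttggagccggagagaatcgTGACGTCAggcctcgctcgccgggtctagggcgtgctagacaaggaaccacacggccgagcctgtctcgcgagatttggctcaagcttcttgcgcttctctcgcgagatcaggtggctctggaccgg
Pdk4: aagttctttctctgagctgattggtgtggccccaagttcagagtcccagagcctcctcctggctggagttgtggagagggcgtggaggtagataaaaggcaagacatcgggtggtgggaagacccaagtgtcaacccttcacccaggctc

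The capitals mark the CREB motif TGACGTCA in Mdh2, and the other windows hold none of the motifs searched. Promoters from 250 bases before to 50 bases after the start were listed for 32 of the 35 genes and were searched on both strands. TGACGTCA was in 3 of the 32 (Ogdh, Mdh2 and Pdpr) and in 2.03% of the 27025 genes in the promoter table, and CGCATGCG, the core of the NRF1 motif, was in 1 (Ogdh) and in 2.07% of all. CCGGAAG, which ETS factors such as GABPA bind, was in 5 (Idh3b, Idh3g, Dlst, Mpc1 and Glud1) and in 9.93% of all. The core AAGGTCA of the motif of estrogen-related receptors was in 2 (Ogdh and Got1) and in 5.38% of all, and the longer TCAAGGTCA, which contains that core, was in 0 of the 32 and in 0.466% of all. The motif spellings were chosen after matches had been looked at. These matches are letters in a window and no binding was measured. In the same build the gene Suclg1 spans chr6:73248505-73276907, Pdk4 spans chr6:5483351-5496278 and Me3 spans chr7:89632284-89854359.

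As a whole the 35 genes took up a larger part of the RNA in the cold, and more so in wild-type mice. They held 0.732%, 0.767% and 0.931% of the counts of nuclear genes in the wild-type libraries at 30°C and 2.07%, 2.15% and 2.16% at 8°C. In HY/HY mice the shares were 0.932%, 1.21% and 1.15% at 30°C and 1.31%, 1.47% and 1.38% at 8°C. The 4 groups thus did not overlap and stood in the order wild type at 30°C, HY/HY at 30°C, HY/HY at 8°C and wild type at 8°C. The highest wild-type and the lowest HY/HY library at 30°C, at 0.931% and 0.932%, were hardly apart. Pcx alone held 22475 of 18305586 sense-strand pairs in that wild-type library and 40183 of 22141929 in that HY/HY library. The separation of the genotypes at 30°C rests on this 1 gene and is not a property of the 35 as a whole. In a piece of tissue, more cells of a type and more RNA per cell cannot be told apart.

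**Figure D1:**
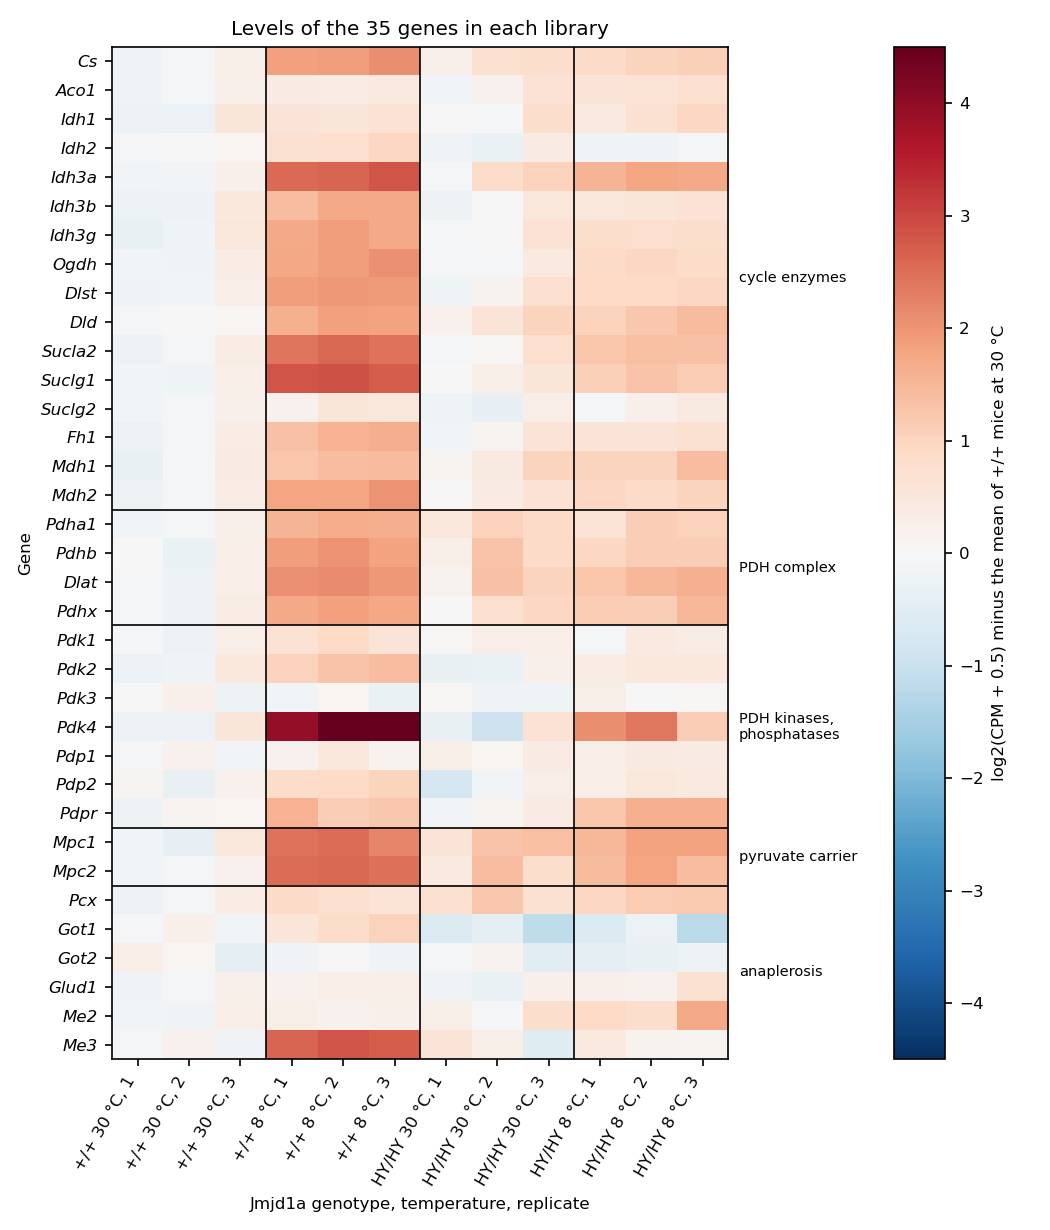
Each row is 1 of the 35 genes, ordered by role, and each column 1 library, with 3 replicates per group. Colour gives log2(CPM + 0.5) minus the mean of the 3 wild-type libraries at 30°C, from blue (lower) to red (higher). The 3 wild-type libraries at 8°C are red for 27 genes that were called higher there, and the HY/HY libraries at 8°C are paler for most of these.

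In wild-type mice 27 of the 35 genes were called higher at 8°C than at 30°C and 0 lower, where 10.3% of all genes tested were called higher and 6.93% lower. All 3 libraries at 8°C were above all 3 at 30°C for 29 of the 35, which held for 20.7% of all genes. The median log2 fold change was 1.57 over the 35 genes and -0.07 over all genes tested. In the same comparison the mammary epithelium markers summed to 2130 to 3871 CPM at 30°C and 1428 to 1572 CPM at 8°C, the endothelial markers to 376.1 to 581.6 CPM and 705.5 to 991.1 CPM, and their part in the result was not tested. By role the called genes were 13 of 16 cycle enzymes, 4 of 4 PDH subunits, both carrier subunits, 5 of 7 kinases and phosphatases and 3 of 6 genes of anaplerosis. In HY/HY mice 1 gene was called higher (Pdpr) and 0 lower, against 0.181% and 0.0665% of all genes, and the median was 0.54. A total of 20 of the 35 (57.1%) had an unadjusted p under 0.05 there, against 14.7% of all genes, and 19 had all 3 libraries at 8°C above all 3 at 30°C, which held for 9.33% of all genes.

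Between the genotypes 18 genes were called lower in HY/HY mice at 8°C and 0 higher, against 4.42% and 1.51% of all genes, with a median of -0.70. All 18 were among the 27 genes higher in the cold in wild-type mice. Both comparisons use the same 3 wild-type libraries at 8°C, so that a high level there favours both calls. The overlap is thus partly built in, and its share over all genes was not counted. The other 9 of the 27 (Dld, Mdh1, Dlat, Pdhx, Pdk1, Pdp2, Pdpr, Mpc1 and Pcx) were not called between the genotypes at 8°C. Of these, Dld, Dlat, Pdhx, Pdk1, Pdp2 and Mpc1 had every HY/HY library below every wild-type one there. All 3 HY/HY libraries were below all 3 wild-type ones at 8°C for 25 of the 35, which held for 19% of all genes. They were above for 3 (Aco1, Pcx and Me2), which held for 16.4% of all genes. At 30°C 0 of the 35 were called higher and 0 lower in HY/HY mice, against 0.562% and 0.441% of all genes, with 12 of the 35 (34.3%) and 18.6% of all genes at an unadjusted p under 0.05. All 3 HY/HY libraries were above all 3 wild-type ones at 30°C for 5 genes (Dld, Pdha1, Mpc1, Mpc2 and Pcx), and this held for 7.66% of all genes. At 30°C the mammary epithelium markers summed to 2130 to 3871 CPM in wild-type and 560.0 to 1574 CPM in HY/HY mice and the macrophage markers to 166 to 169 CPM and 189 to 329 CPM, without overlap, and their part in the differences at 30°C was not tested. The interaction was called for 13 genes, all with the smaller cold response in HY/HY mice, against 2.07% of all genes in that direction and 0.169% in the other. These were 8 cycle enzymes (Cs, Idh3a, Ogdh, Dlst, Dld, Sucla2, Suclg1 and Mdh2), Pdha1, Pdhb, Mpc1, Mpc2 and Me3. A total of 8 genes (Aco1, Idh1, Suclg2, Pdk3, Pdp1, Got2, Glud1 and Me2) were called in none of the 5 comparisons.

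The number of genes called in HY/HY mice depended on single libraries. Replicate 3 was the highest of its group for 29 of the 35 genes in wild-type and for 26 in HY/HY mice at 30°C, the same libraries in which the white adipocyte markers were highest. The part of adipocyte content in these levels was not tested. Without both libraries, an alternative chosen after the data were seen, 20 of the 35 genes were called higher in the cold in HY/HY mice (4.24% of all genes), 28 in wild-type mice (12.2%), 19 lower in HY/HY mice at 8°C (5.39%) and 20 for the interaction (3.08%). Leaving out HY/HY replicate 3 at 30°C alone gave 13 in the cold response of HY/HY mice (2.72% of all genes, against 0.181%), leaving out wild-type replicate 3 at 30°C gave 2 (0.278%), and leaving out HY/HY replicate 1 or 2 at 30°C or any HY/HY library at 8°C gave 0. The replicate numbers of the labels state no pairing of mice. With a replicate block, which adds an effect of that number over the libraries of both genotypes, 6 genes were called (Idh3a, Ogdh, Sucla2, Suclg1, Pdk4 and Pdpr), against 0.774% of all genes. The wild-type count stayed between 24 and 27 when each library was left out, without wild-type replicate 2 at 30°C too, in which muscle markers were high.

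**Figure D2:**
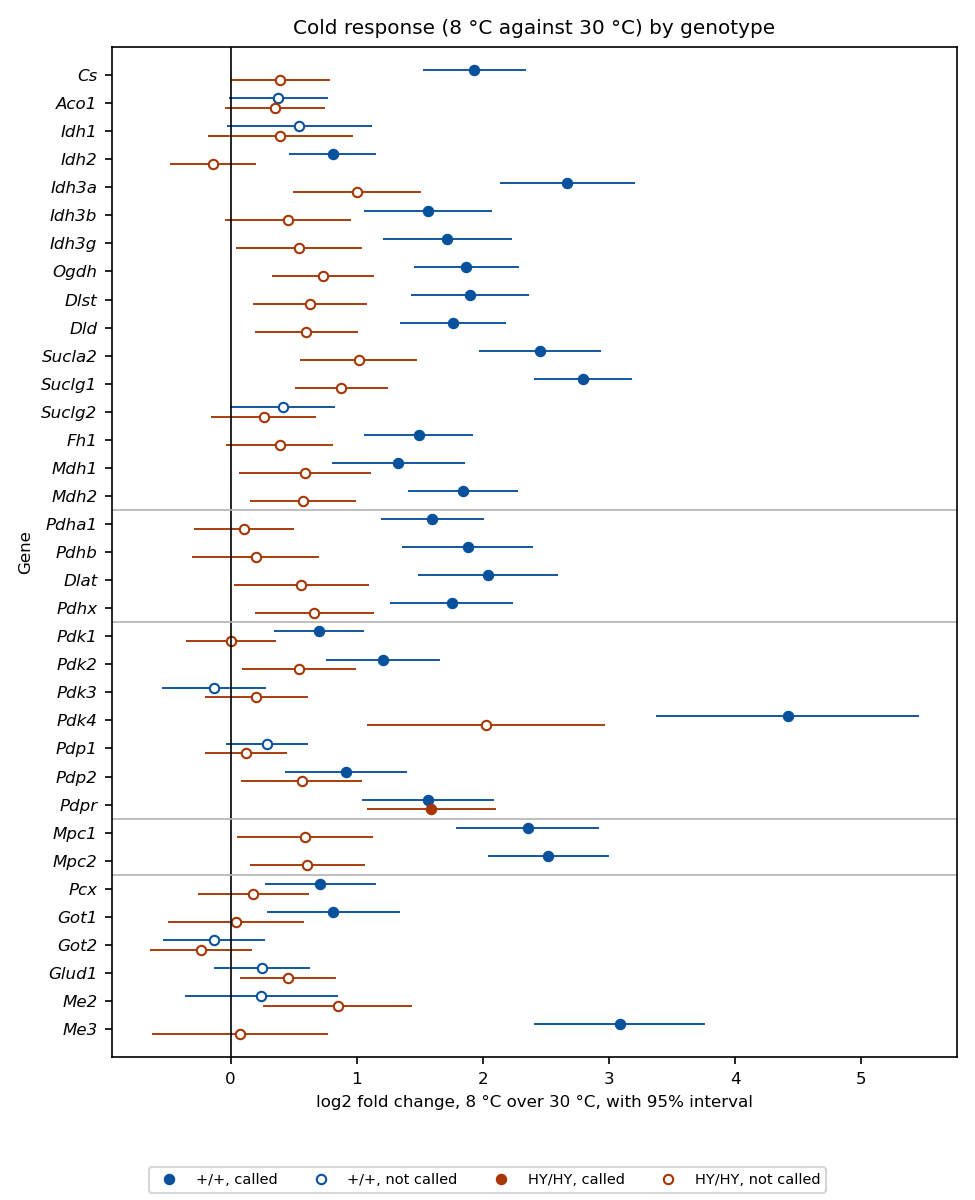
Points give the log2 fold change of each gene at 8°C over 30°C in wild-type (blue) and HY/HY mice (brown), 3 libraries against 3, with bars for the 95% interval of the fit. Filled points were called: 27 in wild-type mice and Pdpr alone in HY/HY mice.

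The pyruvate carrier rose with cold in wild-type mice in both its subunits. Mpc1 was at 159, 133 and 247 CPM at 30°C in wild-type mice and at 959, 999 and 808 CPM at 8°C, and Mpc2 at 107, 112 and 131 CPM and 659.6, 691 and 656 CPM. HY/HY libraries held 261, 429 and 442 CPM of Mpc1 at 30°C and 487, 611 and 608 CPM at 8°C, and 159, 303 and 202 CPM and 311, 399 and 304 CPM of Mpc2. For both genes the 4 groups did not overlap and HY/HY libraries lay above the wild-type ones at 30°C and below them at 8°C. The cold response in wild-type mice was 2.36 ± 0.26, adjusted p = 0.000102 for Mpc1 and 2.52 ± 0.22, adjusted p = 3.26e-05 for Mpc2. In HY/HY mice it was 0.59 ± 0.25 and 0.61 ± 0.21 and was not called (adjusted p = 0.3 and 0.221). Mpc2 was called lower in HY/HY mice at 8°C (-0.99 ± 0.21, adjusted p = 0.0167), whereas Mpc1 was not (-0.70 ± 0.25, adjusted p = 0.115). At 30°C the differences of 1.07 ± 0.25 and 0.93 ± 0.21 in HY/HY mice missed the limit (adjusted p = 0.0628 and 0.0581). The interaction was called for both, at -1.76 ± 0.35, adjusted p = 0.0295 for Mpc1 and -1.91 ± 0.30, adjusted p = 0.0113 for Mpc2. Counting without strand would keep 14.4% of the pairs of Mpc1, and pairs over several genes were not counted.

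The PDH complex turns pyruvate into acetyl-CoA, and the 4 measured genes specific to it rose in wild-type mice at 8°C. Pdha1, the alpha subunit of its decarboxylating enzyme and a gene of the X chromosome, stood at 401, 419.8 and 512 CPM at 30°C in wild-type mice and at 1262, 1408 and 1374 CPM at 8°C. In HY/HY mice Pdha1 stood at 631, 908 and 811 CPM at 30°C and at 676, 949 and 908 CPM at 8°C, and these groups overlapped. Wild-type and HY/HY libraries were apart at both temperatures, with HY/HY higher at 30°C and lower at 8°C. The fold changes were 1.60 ± 0.19, adjusted p = 0.000144 for cold in wild-type mice, 0.11 ± 0.18, adjusted p = 0.822 for cold in HY/HY mice, -0.67 ± 0.18, adjusted p = 0.0454 between genotypes at 8°C and 0.82 ± 0.18, adjusted p = 0.0576 at 30°C. The interaction was -1.49 ± 0.26, adjusted p = 0.0157.

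Pdhb, its beta subunit, stood at 329, 268 and 402 CPM at 30°C and 1209, 1325 and 1141 CPM at 8°C in wild-type mice. HY/HY mice had 389.7, 794 and 593 CPM and 623, 716 and 701 CPM of Pdhb. Wild-type levels did not overlap between temperatures, whereas the HY/HY replicate 2 at 30°C was above all 3 HY/HY libraries at 8°C. Cold raised Pdhb by 1.88 ± 0.24 in wild-type mice (adjusted p = 0.000254), and the difference in HY/HY mice was 0.20 ± 0.23 (adjusted p = 0.731). Pdhb was called lower in HY/HY mice at 8°C (-0.85 ± 0.23, adjusted p = 0.0474) and for the interaction (-1.68 ± 0.33, adjusted p = 0.0275).

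Dlat, the acetyltransferase core, stood at 118, 105 and 152 CPM at 30°C in wild-type mice, 516, 546 and 484 CPM at 8°C, and at 138, 309.8 and 247 CPM and 295, 351 and 379 CPM in HY/HY mice. Pdhx, which tethers dihydrolipoamide dehydrogenase to that core, stood at 40.6, 36.4 and 53.7 CPM and 140.2, 154 and 146 CPM in wild-type mice and at 42.4, 70.2 and 81.6 CPM and 95, 92.3 and 121 CPM in HY/HY mice. Both had HY/HY levels below all wild-type ones at 8°C, but neither was called there (Dlat -0.59 ± 0.25, adjusted p = 0.177, Pdhx -0.52 ± 0.22, adjusted p = 0.184). Cold raised both in wild-type mice, Dlat by 2.04 ± 0.25 (adjusted p = 0.000227) and Pdhx by 1.75 ± 0.22 (adjusted p = 0.000254). The interaction for Dlat, -1.48 ± 0.35, was just outside the limit (adjusted p = 0.0503), and that for Pdhx was -1.09 ± 0.31 (adjusted p = 0.1). Without strand 55.6% of the pairs of Pdha1 would be kept.

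Among the kinases that inactivate PDH, Pdk4, the isoform induced by fasting and fatty acid use, changed most. Pdk4 stood at 29.9, 29.8 and 52.4 CPM at 30°C in wild-type mice and at 568, 843 and 982 CPM at 8°C, and at 28.6, 18.8 and 57.1 CPM and 157, 189.5 and 78.2 CPM in HY/HY mice. No library at 30°C reached the lowest one at 8°C in either genotype, and every HY/HY library at 8°C was below every wild-type one. This was a 21.3-fold rise in wild-type mice (log2 4.42 ± 0.48, adjusted p = 9.26e-05). In HY/HY mice the cold response of 2.03 ± 0.43 missed the limit (adjusted p = 0.0877) and passed with the replicate block (adjusted p = 0.0493), and at 8°C Pdk4 was lower in HY/HY mice (-2.49 ± 0.44, adjusted p = 0.00688). The interaction of -2.39 ± 0.60 was not called (adjusted p = 0.0642).

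Pdk2, a widely expressed kinase, stood at 85.5, 90.7 and 143 CPM and 215, 249.9 and 272 CPM in wild-type mice and at 81.2, 84.4 and 122 CPM and 131, 143 and 145 CPM in HY/HY mice at 30°C and 8°C. It rose with cold in wild-type mice (1.21 ± 0.21, adjusted p = 0.00189) and was lower in HY/HY mice at 8°C (-0.82 ± 0.21, adjusted p = 0.0346). Pdk1, the kinase induced by hypoxia, stood at 71.4, 61.3 and 89.6 CPM and 116, 136 and 109 CPM in wild-type mice and at 76.1, 89.5 and 91.2 CPM and 69.7, 96.1 and 91.6 CPM in HY/HY mice. It rose with cold in wild-type mice (0.70 ± 0.16, adjusted p = 0.0103), and in HY/HY mice the groups overlapped (0.00 ± 0.16, adjusted p = 0.995). Pdk3 was at a low level throughout, 4.85, 5.70 and 4.04 CPM and 4.38, 5.13 and 3.85 CPM in wild-type mice and 5.08, 4.23 and 4.16 CPM and 5.83, 4.75 and 4.95 CPM in HY/HY mice, and its groups overlapped in all 4 pairwise comparisons. The 95% interval of its cold response in wild-type mice was -0.55 to 0.28 on the log2 scale.

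Among the phosphatases that reactivate PDH, Pdp2 and the regulatory Pdpr rose with cold in wild-type mice. Pdp2 stood at 33.2, 24.3 and 35.4 CPM and 55.2, 57.8 and 61.7 CPM in wild-type mice and at 17.8, 27.8 and 37.7 CPM and 37.8, 43.2 and 41.8 CPM in HY/HY mice. Cold raised it in wild-type mice (0.91 ± 0.22, adjusted p = 0.0121), and the HY/HY libraries did not overlap between temperatures either, without passing the test (0.56 ± 0.22, adjusted p = 0.273). Pdp1 was between 6.48 and 10.1 CPM in all 12 libraries, with 6.80, 8.23 and 6.48 CPM and 8.25, 10.1 and 8.02 CPM in wild-type mice and 8.56, 7.64 and 9.30 CPM and 8.81, 9.50 and 9.42 CPM in HY/HY mice. It passed no test, and the interval of its cold response in wild-type mice was -0.04 to 0.62.

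Pdpr, the regulatory subunit of the phosphatase, was the 1 gene called for cold in both genotypes. It stood at 1.22, 1.66 and 1.65 CPM at 30°C in wild-type mice and at 5.43, 3.85 and 4.17 CPM at 8°C, and at 1.36, 1.69 and 2.08 CPM and 4.27, 5.63 and 5.52 CPM in HY/HY mice. The libraries at 8°C were above all those at 30°C, and the genotypes overlapped at both temperatures. The rise was 1.56 ± 0.24, adjusted p = 0.000904 in wild-type and 1.59 ± 0.24, adjusted p = 0.0220 in HY/HY mice, and the interaction of 0.03 ± 0.34 had a 95% interval of -0.71 to 0.77. The call of Pdpr in HY/HY mice was lost without HY/HY replicate 1 or 2 at 30°C or any HY/HY library at 8°C. It was also lost with only the libraries of the comparison. The levels of Pdpr rest on 27 to 90 counts per library, and 24.2% of the pairs over the gene were on the antisense strand.

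**Figure D3:**
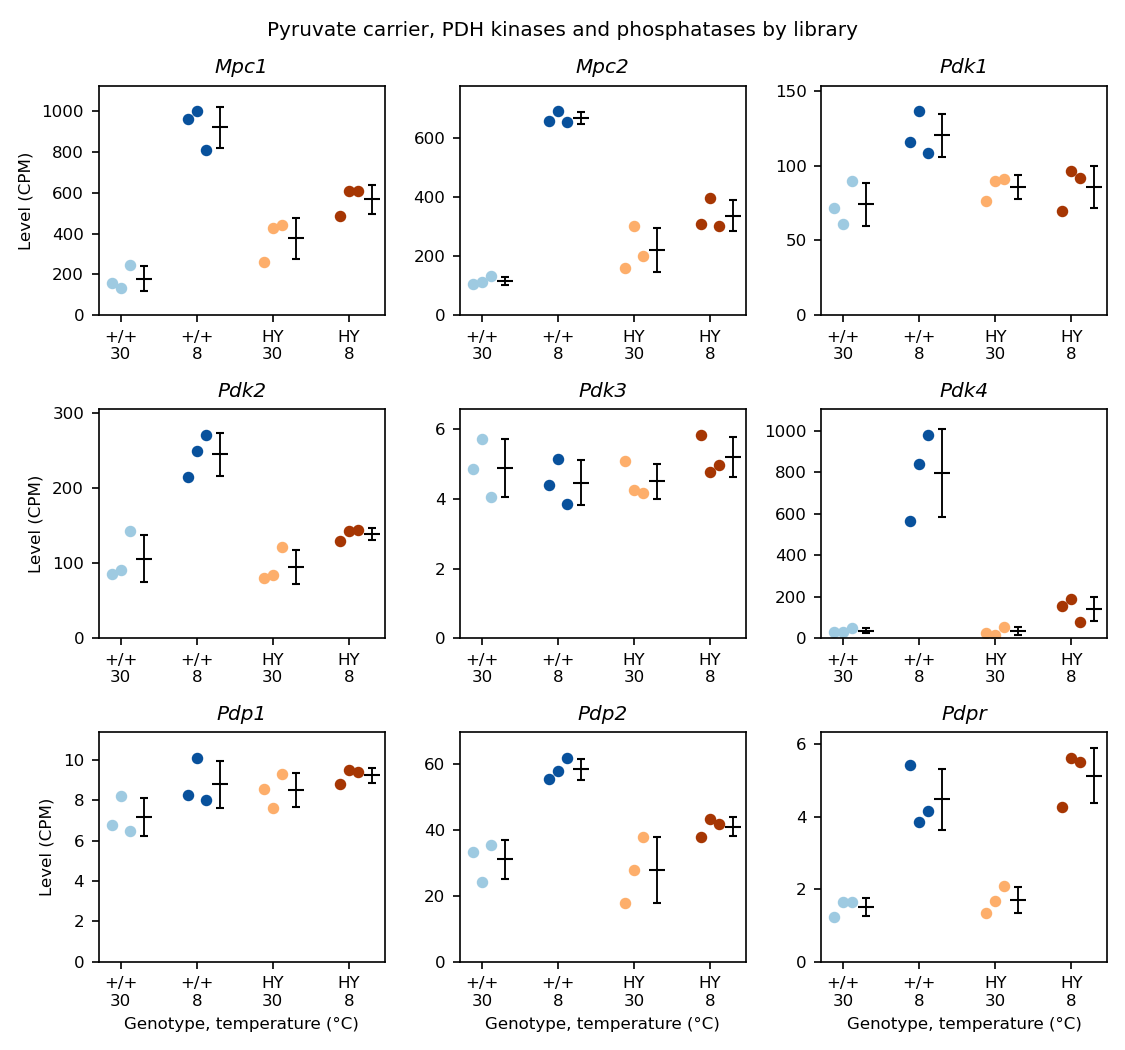
Each panel shows the level in CPM (axis from 0) of 1 gene in the 12 libraries, with the mean and SD of the 3 libraries of a group as a black bar. Pdk4 reaches 568 to 982 CPM in the wild-type libraries at 8°C and 78.2 to 189.5 CPM in HY/HY mice at 8°C, while the Pdpr points of both genotypes overlap at 8°C.

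Citrate synthase rose in the cold in wild-type mice, whereas the cytosolic aconitase passed no test. Cs, citrate synthase, stood at 399, 432 and 543 CPM at 30°C in wild-type mice and at 1635, 1684 and 1932 CPM at 8°C, and at 529, 745 and 778 CPM and 835, 913 and 948 CPM in HY/HY mice. Temperatures did not overlap in either genotype, and HY/HY libraries were below wild-type ones at 8°C. Cs rose with cold in wild-type mice (1.93 ± 0.19, adjusted p = 4.97e-05), was lower in HY/HY mice at 8°C (-0.96 ± 0.18, adjusted p = 0.00976) and was called for the interaction (-1.54 ± 0.26, adjusted p = 0.0135). In HY/HY mice its cold response was 0.39 ± 0.18, adjusted p = 0.341. Aco1, the cytosolic aconitase that also binds iron-responsive elements, had means of 196 ± 29.9 CPM and 254 ± 11.2 CPM in wild-type mice and 236 ± 65.7 CPM and 301 ± 17.1 CPM in HY/HY mice at 30°C and 8°C (± SD, n = 3), with a cold response of 0.38 ± 0.18, adjusted p = 0.145 in wild-type mice.

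Isocitrate dehydrogenase occurs as an NAD-dependent enzyme of the cycle, made from Idh3a, Idh3b and Idh3g, and as the NADP-dependent IDH1 of the cytosol and IDH2 of the mitochondrion. Idh3a, the catalytic subunit, stood at 154, 154 and 193 CPM and 968, 1029 and 1195 CPM in wild-type mice and at 161, 295 and 338 CPM and 481, 567 and 539 CPM in HY/HY mice at 30°C and 8°C. Idh3b stood at 216, 218 and 360.3 CPM and 669.8, 833 and 848 CPM in wild-type mice and at 217, 257 and 363 CPM and 369, 379 and 399.7 CPM in HY/HY mice. Idh3g stood at 142, 156 and 254 CPM and 584, 659.6 and 577 CPM in wild-type mice and at 169, 182 and 279 CPM and 309.8, 300.4 and 308 CPM in HY/HY mice. All 3 subunits were apart between temperatures in both genotypes and lower in every HY/HY library at 8°C than in every wild-type one. Cold raised Idh3a by 2.67 ± 0.24, Idh3b by 1.57 ± 0.23 and Idh3g by 1.72 ± 0.23 in wild-type mice, with adjusted p of 4.23e-05, 0.000739 and 0.000411. At 8°C the 3 were lower in HY/HY mice with log2 differences of -1.01, -1.04 and -0.99 (adjusted p = 0.0234, 0.0199 and 0.0244). The interaction was called for Idh3a (-1.67 ± 0.33, adjusted p = 0.0280) but not for Idh3b (-1.11 ± 0.32, adjusted p = 0.109) or Idh3g (-1.18 ± 0.32, adjusted p = 0.0916).

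Idh2 stood at 108, 113 and 122 CPM and 186, 195 and 219 CPM in wild-type mice and at 101, 92.1 and 148 CPM and 101, 102 and 107 CPM in HY/HY mice. It rose in wild-type mice (0.81 ± 0.16, adjusted p = 0.00408), overlapped between temperatures in HY/HY mice (-0.14 ± 0.16, adjusted p = 0.726) and was lower in HY/HY mice at 8°C (-0.95 ± 0.16, adjusted p = 0.00543). Its interaction of -0.95 ± 0.22 just missed the limit (adjusted p = 0.0505). Idh1 had means of 226 ± 78.9 CPM and 330.1 ± 12.3 CPM in wild-type mice and 268 ± 95.8 CPM and 353 ± 59.9 CPM in HY/HY mice (± SD, n = 3), and passed no test.

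The 2-oxoglutarate dehydrogenase complex follows in the cycle. Ogdh, its decarboxylase, stood at 299, 282 and 410.3 CPM and 1086, 1189 and 1344 CPM in wild-type mice and at 312, 313 and 441 CPM and 585, 615 and 571 CPM in HY/HY mice at 30°C and 8°C. Dlst, its succinyltransferase core, stood at 212, 221 and 293 CPM and 873, 934 and 906 CPM in wild-type mice and at 211, 266 and 399 CPM and 450.1, 446 and 460.3 CPM in HY/HY mice. Dld, the dehydrogenase shared with the PDH complex, stood at 163, 169 and 185 CPM and 528, 618 and 612 CPM in wild-type mice and at 196, 256 and 345 CPM and 353, 398 and 458 CPM in HY/HY mice. For all 3 genes the HY/HY libraries at 8°C lay between those at 30°C and the wild-type ones at 8°C. Cold raised Ogdh by 1.87 ± 0.19, Dlst by 1.90 ± 0.21 and Dld by 1.76 ± 0.19 in wild-type mice (adjusted p = 6.78e-05, 0.000117 and 9.6e-05), and none of the 3 passed in HY/HY mice (0.73, 0.63 and 0.60, adjusted p = 0.129, 0.207 and 0.191). At 8°C Ogdh (-1.03 ± 0.19, adjusted p = 0.00792) and Dlst (-1.0 ± 0.21, adjusted p = 0.0153) were called lower in HY/HY mice, whereas Dld was not (-0.54 ± 0.19, adjusted p = 0.107). All 3 were called for the interaction, at -1.14 ± 0.26, -1.27 ± 0.29 and -1.16 ± 0.26, close to the limit (adjusted p = 0.0459, 0.0472 and 0.0445).

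Succinyl-CoA ligase pairs the alpha subunit from Suclg1 with a beta subunit from Sucla2, which makes ATP, or from Suclg2, which makes GTP. Suclg1 stood at 84.3, 81.3 and 114 CPM and 658, 676 and 605 CPM in wild-type mice and at 90.9, 111 and 136 CPM and 195, 223 and 201 CPM in HY/HY mice at 30°C and 8°C. Sucla2 stood at 113, 125 and 171 CPM and 713, 797 and 727 CPM in wild-type mice and at 128, 139 and 226 CPM and 318, 342 and 338 CPM in HY/HY mice. Suclg2 had means of 98.3 ± 13.3 CPM and 131 ± 17.4 CPM in wild-type mice and 94.1 ± 24.3 CPM and 113 ± 18.6 CPM in HY/HY mice (± SD, n = 3). For Suclg1 and Sucla2 the genotypes were apart at 8°C, with HY/HY libraries between those at 30°C and the wild-type ones at 8°C, whereas the groups of Suclg2 overlapped in every pairwise comparison. Suclg1 rose 6.95-fold with cold in wild-type mice (log2 2.80 ± 0.18, adjusted p = 1.21e-05), was lower in HY/HY mice at 8°C (-1.65 ± 0.17, adjusted p = 0.000794) and had the interaction with the smallest adjusted p of the 35 genes (-1.92 ± 0.24, adjusted p = 0.00787), which held under all 22 alternatives run for the interaction. Sucla2 rose in wild-type mice (2.45 ± 0.22, adjusted p = 4.23e-05) and was lower in HY/HY mice at 8°C (-1.17 ± 0.21, adjusted p = 0.00875), with an interaction of -1.44 ± 0.30, adjusted p = 0.0327. Suclg2 was not called, with a cold response of 0.41 ± 0.19, adjusted p = 0.132 and a 95% interval of -0.0019 to 0.83 in wild-type mice. The promoters printed above thus belong to a pair of genes that were called and 1 that was not.

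The last steps of the cycle are fumarase and malate dehydrogenase. Fh1, fumarase, stood at 107, 121 and 162 CPM and 317, 378 and 401 CPM in wild-type mice and at 117, 139.8 and 193 CPM and 192, 191 and 207 CPM in HY/HY mice. Mdh2, the mitochondrial malate dehydrogenase, stood at 303, 334 and 457 CPM and 1245, 1239 and 1442 CPM in wild-type mice and at 362, 462 and 566 CPM and 689, 655 and 725 CPM in HY/HY mice. Mdh1, the cytosolic one of the malate-aspartate shuttle, stood at 377, 463 and 615 CPM and 1118, 1248 and 1291 CPM in wild-type mice and at 523, 628 and 949 CPM and 951, 961 and 1253 CPM in HY/HY mice. The genotypes were apart at 8°C for Fh1 and Mdh2 and overlapped for Mdh1. Cold raised Fh1 by 1.49 ± 0.20, Mdh2 by 1.84 ± 0.20 and Mdh1 by 1.33 ± 0.24 in wild-type mice (adjusted p = 0.000349, 9.26e-05 and 0.00269). HY/HY mice had less Fh1 (-0.89 ± 0.20, adjusted p = 0.0187) and Mdh2 (-0.92 ± 0.19, adjusted p = 0.0156) at 8°C, and the difference for Mdh1 was -0.21 ± 0.24, adjusted p = 0.663. Mdh2 was called for the interaction (-1.27 ± 0.27, adjusted p = 0.0367).

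Of the genes that fill or drain the cycle, Pcx, Got1 and Me3 rose with cold in wild-type mice. Pcx, pyruvate carboxylase, stood at 793, 897 and 1194 CPM at 30°C in wild-type mice and at 1714, 1547 and 1462 CPM at 8°C, and at 1557, 2206 and 1529 CPM and 1799, 2068 and 2136 CPM in HY/HY mice. The wild-type libraries at 30°C were below all 9 others. Pcx rose with cold in wild-type mice (0.71 ± 0.20, adjusted p = 0.0250). The difference at 30°C in HY/HY mice missed the limit (0.88 ± 0.20, adjusted p = 0.0605) and the HY/HY groups overlapped between temperatures (0.18 ± 0.20, adjusted p = 0.716). At 8°C every HY/HY library was above every wild-type one, opposite to the 18 genes called there, and Pcx was not called.

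Got1, the cytosolic aspartate aminotransferase, stood at 24.0, 29.8 and 23.4 CPM and 37.8, 45.2 and 52.9 CPM in wild-type mice and at 16.2, 19.4 and 11.3 CPM and 16.5, 21.1 and 10.6 CPM in HY/HY mice. HY/HY libraries were below wild-type ones at both temperatures, with a call at 8°C (-1.49 ± 0.25, adjusted p = 0.00543) and none at 30°C (-0.71 ± 0.24, adjusted p = 0.153). Cold raised Got1 in wild-type mice (0.82 ± 0.24, adjusted p = 0.0299). Got2, its mitochondrial counterpart, had means of 53.7 ± 12.6 CPM and 49.1 ± 2.79 CPM in wild-type mice and 48.6 ± 11.3 CPM and 41.4 ± 2.97 CPM in HY/HY mice (± SD, n = 3) and passed no test. Read pairs aligned to several places, such as a gene and a pseudogene, were not counted for any gene. How many pairs of Got2 were lost in this way was not measured, so that its level is uncertain. Glud1, glutamate dehydrogenase, had means of 196 ± 28.8 CPM, 232 ± 10.5 CPM, 187 ± 34.9 CPM and 256 ± 52.5 CPM in the same order and passed no test.

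Of the mitochondrial malic enzymes Me3 was called and Me2 was not. Me3, which uses NADP, stood at 1.31, 1.66 and 1.17 CPM at 30°C and 10.9, 12.7 and 11.9 CPM at 8°C in wild-type mice, and at 2.29, 1.72 and 0.780 CPM and 2.01, 1.56 and 1.54 CPM in HY/HY mice. Me3 was thus high in the 3 wild-type libraries at 8°C alone, and the HY/HY groups overlapped. It rose 8.48-fold in wild-type mice (log2 3.08 ± 0.31, adjusted p = 6.09e-05), and in HY/HY mice the difference was 0.08 ± 0.32, adjusted p = 0.938. HY/HY mice had less at 8°C (-2.79 ± 0.31, adjusted p = 0.000986), and the interaction was -3.01 ± 0.44, adjusted p = 0.0113, on 15 to 185 counts per library. Me2, which uses NAD, had means of 8.27 ± 1.64 CPM and 9.76 ± 0.264 CPM in wild-type mice and 10.7 ± 3.55 CPM and 19.3 ± 7.26 CPM in HY/HY mice (± SD, n = 3). All 3 HY/HY libraries were above the wild-type ones at 8°C, and the test just missed the limit (0.98 ± 0.28, adjusted p = 0.0539).

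**Figure D4:**
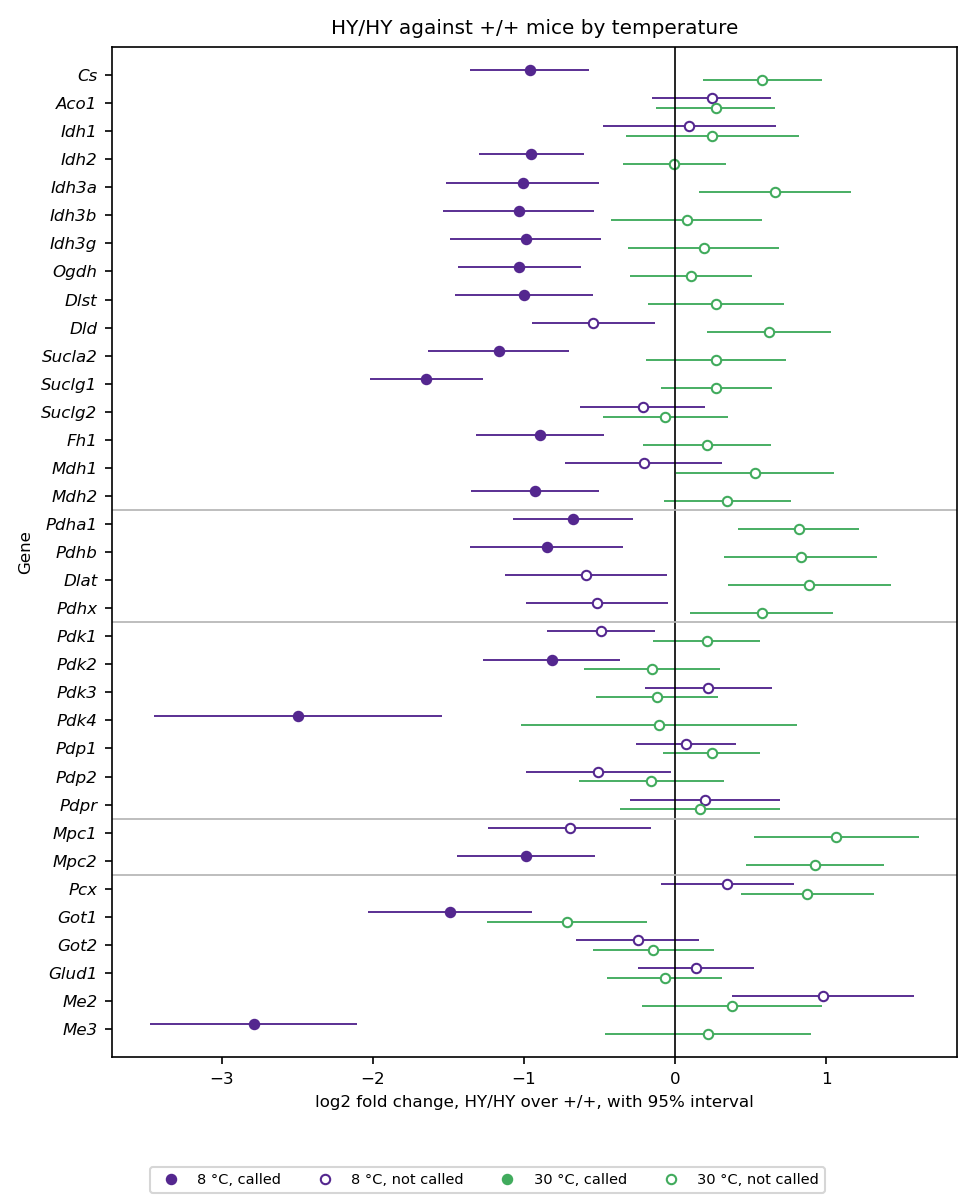
Points give the log2 fold change of each gene in HY/HY over wild-type mice at 8°C (purple) and at 30°C (green), 3 libraries against 3, with bars for the 95% interval of the fit. Filled points were called: 18 at 8°C, all below 0, and 0 at 30°C, where Mpc1, Mpc2, Pcx, Dlat, Pdhb and Pdha1 have the highest values.

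The plot of genotype differences sets the pyruvate-entry genes beside the cycle enzymes. For the 6 genes of the carrier and the PDH complex, the median difference of HY/HY from wild-type mice was 0.86 at 30°C (range 0.57 to 1.07) and -0.69 at 8°C (range -0.99 to -0.52). Over the 16 cycle enzymes it was 0.27 at 30°C (range -0.06 to 0.66) and -0.96 at 8°C (range -1.65 to 0.24). None of these genes was called at 30°C, where the adjusted p ranged from 0.0576 to 0.193 over the 6 genes, and the difference between the gene groups was not tested. Leaving out HY/HY replicate 1 at 30°C gave 10 genes called higher at 30°C (1.61% of all genes, against 0.562%), and leaving out wild-type replicate 3 at 30°C gave 2 (0.355%). The 5 comparisons share libraries, so that a low wild-type level at 30°C enters the cold response, the difference at 30°C and the interaction alike. In the same way a high wild-type level at 8°C enters the cold response, the difference at 8°C and the interaction.

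Counts of calls at 8°C and for the interaction depended on single libraries. The 18 genes lower in HY/HY mice at 8°C became 9 without wild-type replicate 2 at 8°C, 8 without wild-type replicate 3 at 8°C, and 7, 10 and 8 without HY/HY replicate 1, 2 or 3 at 8°C, where 1.78% to 3.34% of all genes were called lower, against 4.42%. The 13 genes of the interaction became 3 and 4 without wild-type replicate 1 or 2 at 30°C, 5, 4 and 3 without wild-type replicate 1, 2 or 3 at 8°C, and 3, 5 and 5 without HY/HY replicate 1, 2 or 3 at 8°C, where 0.378% to 0.82% of all genes were called in that direction, against 2.07%. Under the 24 alternatives, of which 22 were run for the interaction, no called gene changed the direction of its fold change. At 8°C the 6 beige adipocyte markers were all called lower in HY/HY mice, against 4.42% of all genes. The 6 macrophage markers all had positive fold changes and 3 were called higher, against 1.51% of all genes. Their sums were 127.2 to 141.3 CPM in wild-type and 218.4 to 298.0 CPM in HY/HY mice. The 7 white adipocyte markers had positive fold changes too, with 2 called higher. The part of cell composition in the differences of the 35 genes was not tested.

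Ratios of 2 transcripts in the same library do not depend on how libraries are scaled, and 11 pairs were compared in each of 4 comparisons with exact two-sided permutation tests of 3 libraries against 3, whose smallest p is 0.1. No test could therefore pass 0.05, and the lowest p adjusted over the 11 pairs was 0.122. In wild-type mice the log2 ratio of Sucla2 to Suclg2 was 0.34, 0.44 and 0.59 at 30°C and 2.68, 2.47 and 2.40 at 8°C, and in HY/HY mice it was 0.59, 0.89 and 0.89 and 1.77, 1.57 and 1.37. The ratio of the ATP-forming to the GTP-forming subunit was thus higher in the cold in both genotypes without overlap, by 2.06 in wild-type and 0.78 in HY/HY mice on the log2 scale, and the genotypes were apart at 8°C. The log2 ratio of Idh3a to Idh2 was also higher in the cold without overlap, going from 0.52, 0.45 and 0.67 to 2.38, 2.40 and 2.45 in wild-type and from 0.66, 1.68 and 1.19 to 2.25, 2.47 and 2.33 in HY/HY mice. At 8°C this ratio overlapped between the genotypes, with a difference of -0.06 on the log2 scale (exact permutation p = 0.5), while both genes were lower in HY/HY mice.

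For the mitochondrial Mdh2 against the cytosolic Mdh1 the log2 ratios at 30°C were -0.32, -0.47 and -0.43 in wild-type and -0.53, -0.44 and -0.75 in HY/HY mice. At 8°C the ratios were 0.16, -0.01 and 0.16 in wild-type and -0.47, -0.55 and -0.79 in HY/HY mice, so that the ratio was higher without overlap in wild-type mice and overlapped with 30°C in HY/HY mice. Pdk4 to Pdk2 stood at -1.51, -1.60 and -1.45 and 1.40, 1.75 and 1.85 in wild-type mice and at -1.51, -2.16 and -1.09 and 0.26, 0.41 and -0.89 in HY/HY mice. This ratio was higher in the cold without overlap in both genotypes and apart between them at 8°C (-1.74). The log2 ratio of Pcx to Pdha1, the carboxylating against the oxidising branch, was 0.98, 1.10 and 1.22 and 0.44, 0.14 and 0.09 in wild-type mice and 1.30, 1.28 and 0.91 and 1.41, 1.12 and 1.23 in HY/HY mice. The wild-type libraries at 8°C were below all 9 others, with a shift of -0.88 against 30°C, while the HY/HY groups overlapped (0.09).

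Me3 to Me2 stood at -2.48, -2.11 and -3.09 and 0.12, 0.42 and 0.28 in wild-type mice and at -2.11, -2.14 and -4.18 and -2.94, -3.20 and -4.13 in HY/HY mice, apart between genotypes at 8°C by -3.70. Got2 to Got1 was lower at 8°C in wild-type mice (-0.91) and higher in HY/HY than in wild-type mice at both temperatures (0.60 at 30°C and 1.29 at 8°C), without overlap. Pdk1 to Pdk2 was lower in the cold without overlap in both genotypes (-0.53 and -0.57), and Pdp2 to Pdp1 was higher (0.63 and 0.50). Mpc1 to Mpc2 overlapped between temperatures in both genotypes (-0.13 and -0.03), and Idh2 to Idh1 overlapped in wild-type mice (0.21) and was lower at 8°C in HY/HY mice (-0.54). Between the genotypes at 8°C, Mpc1 to Mpc2 (0.30), Idh2 to Idh1 (-1.03) and Pdp2 to Pdp1 (-0.59) were apart without overlap. Pdk1 to Pdk2 overlapped there (0.32).

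**Figure D5:**
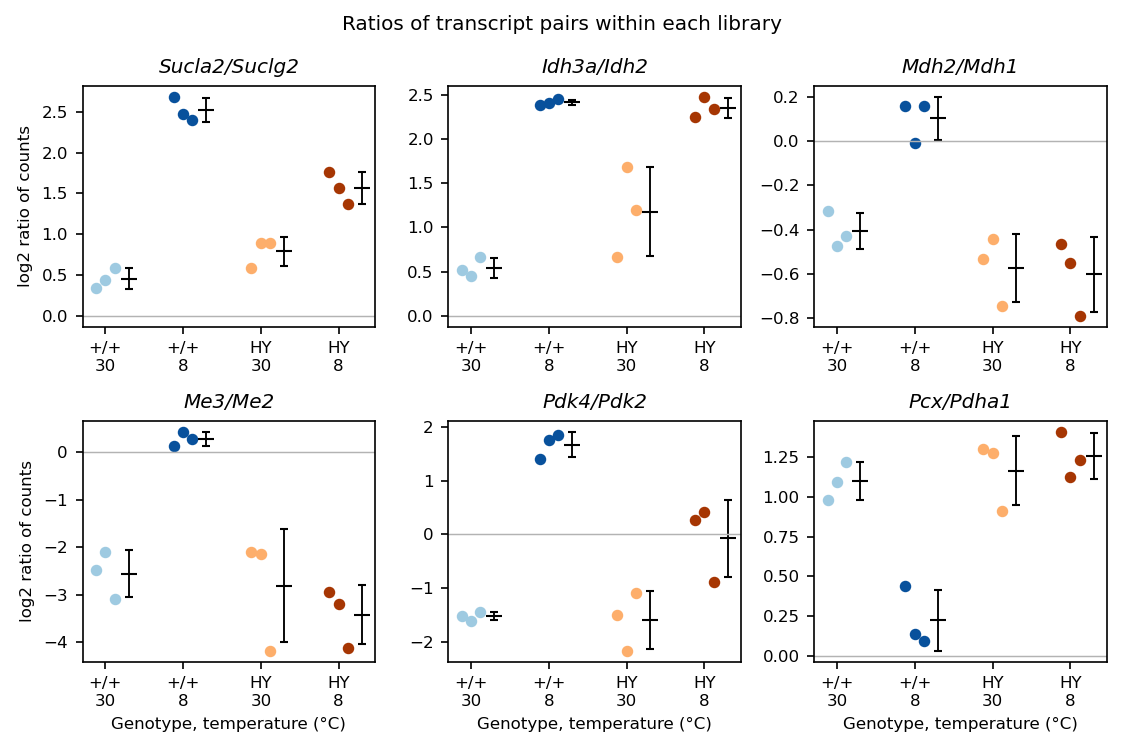
Each panel shows the log2 ratio of the sense counts of 2 genes in the 12 libraries, with the mean and SD of the 3 libraries of a group as a black bar and a grey line at equal counts. The ratio of Sucla2 to Suclg2 is highest in wild-type mice at 8°C and intermediate in HY/HY mice at 8°C, while that of Idh3a to Idh2 overlaps between the genotypes at 8°C.

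Levels of different genes were compared per kilobase, as CPM divided by the length of the transcript with the longest coding part in GENCODE M1. On this scale, in wild-type mice at 30°C, Mdh2 (250.5 ± 56.1, mean ± SD, n = 3), Pcx (232 ± 50.3), Mdh1 (229 ± 56.8) and Pdhb (224 ± 45.4 CPM per kilobase) were the highest and did not differ beyond their spread. In wild-type mice at 8°C the highest were Mpc1 (919 ± 100.2), Mdh2 (899 ± 79.3) and Pdhb (825 ± 62.7 CPM per kilobase), again within their spread. Pcx, at 379.5 ± 30.9 CPM per kilobase, was below them there, while in HY/HY mice at 8°C it was 482 ± 43.1 CPM per kilobase beside 567 ± 70.0 for Mpc1 and 474 ± 23.9 for Mdh2. Pdk4 was below Pdk2 at 30°C and above it at 8°C in wild-type mice, going from 10.7 ± 3.73 against 47.3 ± 14.1 at 30°C to 229 ± 60.5 against 109 ± 12.7 CPM per kilobase at 8°C. Pdpr and Me3 were the lowest of the 35 genes at 30°C, at 0.306 ± 0.0503 and 0.308 ± 0.0562 CPM per kilobase in wild-type mice.

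Replicates were closer to each other at 8°C than at 30°C, for the 35 genes and over all genes tested. The median coefficient of variation over the genes was 8.13% in wild-type and 8.92% in HY/HY mice at 8°C, against 19.4% and 26.8% at 30°C, and over all genes it was 11.2% and 12.7% at 8°C and 16.3% and 18.0% at 30°C. At 30°C HY/HY replicate 1 was the lowest of its group for 23 genes.

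Other genes of the pathway came from a list of 37, of which 35 were tested. With cold in wild-type mice 19 were called higher and 1 lower, against 10.3% and 6.93% of all genes. The 19 include the 4 subunits of succinate dehydrogenase, Sdha (log2 1.41 ± 0.21, adjusted p = 0.000749), Sdhb (1.90), Sdhc (1.14) and Sdhd (1.73). Its assembly factors Sdhaf1 (1.02), Sdhaf3 (1.05) and Sdhaf4 (0.85) rose too, as did Mrps36, which joins the 2-oxoglutarate dehydrogenase complex (2.24). The lipoic acid genes Lias (0.62) and Lipt1 (1.21), the lactate dehydrogenases Ldha (1.10) and Ldhb (2.46) and the monocarboxylate transporter Slc16a1 (2.68) were also called. The cytosolic malic enzyme Me1 (2.22), ATP citrate lyase Acly (1.63), the mitochondrial acetyl-CoA synthetase Acss1 (1.80) and the carriers Slc25a1 (1.07) and Slc25a11 (0.75) rose as well, and Pck2 was lower (-0.63). In HY/HY mice 0 of the 35 were called for cold by edgeR in either direction, against 0.181% of all genes higher and 0.0665% lower. Of the 35, 8 (22.9%) had an unadjusted p under 0.05 there, against 14.7% of all genes.

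At 8°C 9 of these 35 were called lower in HY/HY mice and 0 higher, against 4.42% and 1.51% of all genes. For the interaction 8 were called, all with the smaller response in HY/HY mice, against 2.07% of all genes in that direction. Among them were Sdhb (-1.43 ± 0.25, adjusted p = 0.0170), Sdhd (-1.32), Sdhaf1 (-1.11), Mrps36 (-1.81), Me1 (-2.15), Acss1 (-1.48) and Ldhb (-2.04). Me1 was the 1 gene of this list called at 30°C, where it was higher in HY/HY mice (2.30 ± 0.34, adjusted p = 0.0187), against 0.562% of all genes called higher. Its levels were 586, 794 and 863 CPM in wild-type and 2148, 5967 and 2916 CPM in HY/HY mice at 30°C and 3804, 3625 and 3044 CPM and 3528, 3470 and 4602 CPM at 8°C, so that the wild-type libraries at 30°C stood below all others. The median cold response in wild-type mice was 1.57 over the 35 genes described here, 1.48 over 36 nuclear subunits of respiratory complex I and 0.76 over 75 mitochondrial ribosomal proteins, and between genotypes at 8°C it was -0.70, -1.0 and -0.50. At 30°C the medians were 0.25, 0.14 and 0.09. These medians describe the lists and were not tested against each other.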

How the data were processed

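RNA of scWAT was sequenced from 12 mice. The authors used fastp and STAR with mm10, and the deposited values are raw counts of read pairs per gene, for both strands and for each strand. Tool versions are not given in the sources used here. Pairs aligned to several places (26.7% to 32.2%), unaligned (25.1% to 28.8%), outside genes (1.99% to 3.20%) or over several genes (0.93% to 1.10%) were kept out of library sizes. Here edgeR 4.0.16 (R 4.3.3) was run on the sense-strand counts: filterByExpr on the 4 groups, TMM, a quasi-likelihood fit of the 4 group means (8 residual degrees of freedom, common biological coefficient of variation 20.7%) and Benjamini-Hochberg adjustment over 16540 genes. Ratios used a pseudocount of 0.5. Each library is from 1 mouse. Same-numbered HY/HY libraries deviated together across temperatures (r = 0.112, 0.199 and 0.303), so the replicate block is printed beside that comparison. The number comes from the labels, which state no shared litter or day. In the other comparisons at least 1 such r was below 0.1.

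The genes, lists and tests were chosen with earlier results of these data known. Each of the 35 genes is named. Values of every library are given for genes called in a comparison and for the carrier, kinases and phosphatases, and pathway genes outside the 35 are named where called for cold in wild-type mice or for the interaction, except 1 that is counted but not reported here. Alternatives were DESeq2 1.42.0, other scalings, filters and limits, both strands, only the libraries of a comparison, the replicate block and each library left out.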

Additional observations from a re-analysis of the deposited data

Results flagged for a closer look

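The cold response differed between wild-type and HY/HY mice by a test of the difference itself for 13 of the 35 genes, and each was flagged for that. With edgeR's interaction term over all genes, the log2 differences (HY/HY minus wild type) were -3.01 for Me3, -1.92 for Suclg1, -1.91 for Mpc2, -1.76 for Mpc1, -1.68 for Pdhb, -1.67 for Idh3a, -1.54 for Cs, -1.49 for Pdha1, -1.44 for Sucla2, -1.27 for Dlst, -1.27 for Mdh2, -1.16 for Dld and -1.14 for Ogdh. Suclg1 kept its call under all 22 alternatives run for it, Me3 and Mpc2 under 21, and Cs under 18. Ogdh, Dld and Mdh2, which kept theirs under 11, had adjusted p-values of 0.0459, 0.0445 and 0.0367. Groups of 3 libraries are too small for the test for single outlying libraries.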

How the results depend on the processing

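Under 24 alternatives (22 for the interaction) 0 of the 59 calls changed direction, whereas 36 of the 116 fold changes that were not called took both signs, such as the cold responses of Pdha1 (-0.03 to 0.24) and Pdhb (-0.03 to 0.47) in HY/HY mice. The share of all genes called stands in brackets after a count. The 27 genes higher in the cold in wild-type mice were 24 to 27 (8.07% to 11.1%) when each library was left out, and no alternative moved that count by over 1.5 times. Genes called higher in the cold in HY/HY mice numbered 6 with DESeq2 (1.28%), 3 with library totals (0.224%), 5 without a filter (0.326%), 6 with the replicate block (0.774%), 0 with only the libraries of the comparison (0%; fewer samples), 0 at an adjusted p under 0.01 (0.0423%), 20 without both replicate 3 libraries at 30°C (4.24%; chosen after the data were seen), and 0 to 13 with each library left out (0.0413% to 2.72%). Genes lower in HY/HY mice at 8°C numbered 8 at an adjusted p under 0.01 (1.77%) and 7 to 18 with each library left out (1.78% to 4.92%). Genes higher there numbered 1 (Me2) with DESeq2, library totals, no filter, at least 10 counts in every library, only the libraries of the comparison, the replicate block and without both replicate 3 libraries at 30°C (1.14% to 4.18%), and 0 to 1 with each library left out (0.254% to 2.41%). Genes higher in HY/HY mice at 30°C numbered 8 with DESeq2 (2.22%), 6 without a filter (0.916%), 2 on both strands (0.632%), 5 with the replicate block (1.3%), 1 without both replicate 3 libraries (0.246%) and 0 to 10 with each library left out (0.0296% to 1.61%), against 0.562% before. The interaction was called for 20 genes with DESeq2 (4.3%), 1 at an adjusted p under 0.01 (0.127%), 20 without both replicate 3 libraries (3.08%), 19 with the replicate block (2.84%) and 3 to 18 with each library left out (0.378% to 3.6%). Where not said otherwise, the cause was not tested. The pairs of transcripts whose ratio did not overlap between the genotypes at 30°C numbered 1, and 2 to 4 with a library left out. Smaller groups are separated more easily, so that these counts cannot be compared directly. The replicate block gave 28 genes in the cold response of wild-type mice (10.9%) and 18 lower in HY/HY mice at 8°C (4.87%). By the labels, the samples of a block share only a number.

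Library totals in place of TMM moved the median of all genes by cold in wild-type mice from -0.07 to -0.41, and the median of the 35 genes from 1.57 to 1.24. Genes with few counts, such as Pdpr (27 to 90 per library) and Me3 (15 to 185), have the least precise levels.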
